A study of Mus musculus with 2 samples.

Results

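The regions described here are peaks of open chromatin that were called in mouse mammary epithelial cells after 2 h of TGFβ1, had no counterpart in the vehicle cells, and lay inside the introns of protein-coding genes. There were 2830 of them among the 22600 distinct DNaseI-seq peaks of the TGFβ 2 h list. They were chosen by presence in the lists and by position on mouse build mm9, with no use of their score or sequence. Such a peak had no overlapping base in the vehicle list, did not reach within 1000 bp of the start of any transcript of GENCODE release M1, and had its midpoint inside a protein-coding gene but in none of its exons. They are called TGFβ 2 h-only intronic peaks below. The name says in which list a peak was called, not that signal was absent from the vehicle cells.

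The cells were NMuMG, an epithelial line derived from normal mouse mammary gland. Both groups were first starved of serum and insulin for 6 h. One group then received TGFβ1 at 5 ng/ml for 2 h and the other received its carrier (vehicle), which the treatment protocol gives as 4 mM HCl with 1 mg/ml BSA and the sample label as Tris-HCl with BSA. Nuclei were digested with 75 units of DNaseI for 5 min, and fragments of 50 to 300 bp were sequenced. Each group had 1 deposited peak list. The spread between cultures is therefore unknown, no test between the conditions was made, and every interval below covers the counting of peaks only. The vehicle library was the more deeply sequenced of the pair.

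TGFβ is a secreted cytokine whose receptors phosphorylate Smad2 and Smad3, which enter the nucleus with Smad4 and bind short CAGAC elements, usually together with other factors. AP-1, a dimer of Jun and Fos family proteins, binds the heptamer TGACTCA and is one of the factors that bind together with Smads. Distal elements within introns are a common place for enhancers, which can act on the gene that holds them or on another gene nearby. In NMuMG cells TGFβ starts an epithelial-to-mesenchymal transition, with loss of junctions and remodelling of actin, adhesions and matrix.

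The sequences below show the AP-1 heptamer, which 788 of the 2830 peaks (27.8%) held and 2042 did not. They are the 200 bp around the peak midpoint on the plus strand of mm9, with each match to TGACTCA or its reverse complement TGAGTCA in capitals. The first 5 were taken by score, at most 1 for each gene, from the 7 peaks that held 3 sites, the most in any peak. The windows were chr4:150713636-150713835 in intron 5 of Camta1, chr1:93116282-93116481 in intron 2 of Ramp1, chr15:41443897-41444096 in intron 2 of Oxr1, chrX:20394305-20394504 in intron 1 of Araf and chr7:89424423-89424622 in intron 5 of Sh3gl3.
Camta1: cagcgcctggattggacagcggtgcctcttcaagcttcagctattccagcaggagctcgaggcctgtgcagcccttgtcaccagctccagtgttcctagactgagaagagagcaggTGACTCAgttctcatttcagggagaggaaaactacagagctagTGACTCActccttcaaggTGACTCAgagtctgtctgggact
Ramp1: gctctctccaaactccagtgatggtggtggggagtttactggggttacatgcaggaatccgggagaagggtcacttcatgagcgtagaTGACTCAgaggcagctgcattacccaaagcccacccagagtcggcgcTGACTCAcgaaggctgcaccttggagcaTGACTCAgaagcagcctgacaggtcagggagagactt
Oxr1: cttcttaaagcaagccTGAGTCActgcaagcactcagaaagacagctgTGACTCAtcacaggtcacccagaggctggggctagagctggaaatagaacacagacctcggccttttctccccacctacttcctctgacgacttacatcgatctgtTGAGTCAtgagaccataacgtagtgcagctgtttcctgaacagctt
Araf: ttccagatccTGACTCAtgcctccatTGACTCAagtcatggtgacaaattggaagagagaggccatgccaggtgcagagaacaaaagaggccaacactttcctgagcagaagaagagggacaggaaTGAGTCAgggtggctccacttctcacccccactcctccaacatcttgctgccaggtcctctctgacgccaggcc
Sh3gl3: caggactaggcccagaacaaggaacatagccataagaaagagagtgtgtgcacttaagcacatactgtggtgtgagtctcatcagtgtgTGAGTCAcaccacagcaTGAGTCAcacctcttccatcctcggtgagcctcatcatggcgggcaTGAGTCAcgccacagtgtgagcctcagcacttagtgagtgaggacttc

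The next 3 show peaks with 1 AP-1 site in genes of the TGFβ response and were chosen for display after their values were seen. They lay in intron 1 of Smad3 (chr9:63566636-63566835), in intron 2 of the integrin gene Itgb3 (chr11:104486185-104486384) and in intron 3 of the myosin gene Myh9 (chr15:77631027-77631226).
Smad3: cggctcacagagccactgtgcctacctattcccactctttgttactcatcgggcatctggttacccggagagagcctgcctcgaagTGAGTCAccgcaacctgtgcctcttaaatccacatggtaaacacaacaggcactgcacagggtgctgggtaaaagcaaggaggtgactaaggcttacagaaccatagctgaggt
Itgb3: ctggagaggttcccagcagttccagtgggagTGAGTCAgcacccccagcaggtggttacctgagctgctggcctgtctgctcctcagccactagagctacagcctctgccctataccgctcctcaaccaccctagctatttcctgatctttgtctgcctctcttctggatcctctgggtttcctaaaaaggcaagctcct
Myh9: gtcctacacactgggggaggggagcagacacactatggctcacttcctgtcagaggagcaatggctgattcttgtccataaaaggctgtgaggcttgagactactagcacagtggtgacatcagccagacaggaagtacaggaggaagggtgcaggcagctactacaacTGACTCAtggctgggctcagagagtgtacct

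A rarer string was GTCTAGAC, a palindrome of GTCT and AGAC to which Smad3 and Smad4 bind, which 18 of the 2830 peaks held in their central 200 bp. The 60 bases around it are shown for the 5 highest-scoring peaks with it, at most 1 for each gene, also chosen after their values were seen. They lay in Plekhg3 (chr12:77653391-77653450), Rbfox1 (chr16:6889503-6889562), Gpr56 (chr8:97521575-97521634), Zmynd8 (chr2:165694431-165694490) and Slc38a10 (chr11:119983532-119983591), all on the plus strand of mm9 with the palindrome in capitals.
Plekhg3: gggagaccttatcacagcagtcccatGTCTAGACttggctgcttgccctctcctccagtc
Rbfox1: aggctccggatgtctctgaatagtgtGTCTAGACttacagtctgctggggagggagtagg
Gpr56: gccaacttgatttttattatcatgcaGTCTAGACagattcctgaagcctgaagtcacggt
Zmynd8: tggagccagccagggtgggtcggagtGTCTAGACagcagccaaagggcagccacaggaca
Slc38a10: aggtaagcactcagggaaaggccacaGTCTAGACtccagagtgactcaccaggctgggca

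The 2830 peaks were 58.3% of the 4853 distal intronic peaks of the TGFβ 2 h list. Over all peaks of that list, 33.7% had no overlapping vehicle peak, with 55.3% of distal, 52.7% of distal intergenic and 10.1% of promoter peaks. In the vehicle list 921 distal intronic peaks had no overlapping TGFβ 2 h peak, 31.6% of the 2914 there. These counts follow from the rule and are a description. The other class used for comparison is that of shared distal intronic peaks, 2023 in the TGFβ 2 h list. There were also 3420 TGFβ 2 h-only peaks in distal intergenic positions.

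TGFβ 2 h-only intronic peaks outnumbered vehicle-only intronic peaks by 3.07 to 1 (95% interval 2.85 to 3.31), against 2.65 to 1 (2.48 to 2.82) for intergenic peaks. When the longer list was cut to the length of the shorter, the ratio fell to 1.28 (1.19 to 1.38), with 1581 TGFβ 2 h-only intronic peaks left. Among peaks at the score ceiling there were 217 against 31, a ratio of 7 (4.79 to 10.6). The ceiling held 44.3% of all peaks of the TGFβ 2 h list and 53.2% of the vehicle list, so it is not the same limit in both. The score is a whole number deposited with each peak. Its lowest value was 540 and its highest, the ceiling, was 1000. It has no unit and ranks peaks within a list.

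Most of these peaks were low in score and narrow for their list. Over all peaks of the TGFβ 2 h list the score had a first quartile of 683 and a median of 927, and the width a median of 621 bp. The TGFβ 2 h-only intronic peaks had a median score of 677.5 and quartiles of 597 and 807, and 7.67% sat at the ceiling. Among shared intronic peaks the median score was 915 and 39.4% sat at the ceiling. Median widths were 440 bp for TGFβ 2 h-only, 595 bp for shared and 461 bp for vehicle-only intronic peaks. Widths of the TGFβ 2 h-only peaks ran from 73 to 1415 bp. An interval could be listed in several rows, and 882 of the 2830 were listed once.

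Few of them were near misses of the overlap rule. The nearest vehicle peak was a median of 23.0 kb away, with quartiles of 8.75 and 54.2 kb. A vehicle peak lay within 1000 bp of 130 of them (4.59%, 3.88 to 5.43). The closest was a 101 bp peak in intron 5 of Iqgap1 (chr7:87907788-87907888, score 710), which touched a vehicle peak without sharing a base. The next was a 73 bp peak of Glg1 with a gap of 10 bp. On the other side of the rule, the shared intronic peak with the smallest overlap lay in Baiap2l1 and shared 4 bases. For the promoter limit, a peak in Ppargc1b lay 1006 bp from a start and was kept, and one in Schip1 lay 999 bp from a start and was left out. At the lowest score of 540 there were 7 members.

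Some of the peaks were close neighbours that were listed as separate intervals. Joining those within 500 bp of each other left 2718 regions, and 221 peaks (7.81%) had another within that distance. Overlapping 200 bp windows, which count a stretch of sequence more than once in the motif counts below, were found for 3 pairs. Among the genes whose counts are given below, Gm20388, Arfip1, Chn2, Col27a1, Col4a2, Ctif, D18Ertd653e, Itga3, Lama3, Notch2, Schip1 and Tns3 held such neighbours within 500 bp, and their counts are of intervals. The change was largest for Itga3, with 2 intervals in 1 joined region, Chn2, with 6 in 3, Notch2, with 6 in 4, and Lama3, with 3 in 2.

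Of the strings searched in their sequence, which was not used to choose them, the AP-1 heptamer had the largest excess over nearby sequence in percentage points. It was searched on both strands as TGACTCA or TGAGTCA in the central 200 bp. It occurred in 788 of the 2830 peaks (27.8%, 26.2 to 29.5), with 889 sites in all. In 200 bp windows placed 2000 bp away on either side (the flanks) it occurred in 3.09%, and over all peaks of the TGFβ 2 h list in 15.1%. Vehicle-only intronic peaks held it in 7.38% (5.87 to 9.25), a difference of 20.5 points (17.99 to 22.7). Shared intronic peaks held it in 26.2%, and the difference of 1.60 points had an interval from -0.95 to 4.11 that includes 0. The difference from TGFβ 2 h-only intergenic peaks was 0.184 points (-2.04 to 2.42).

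**Figure D1:**
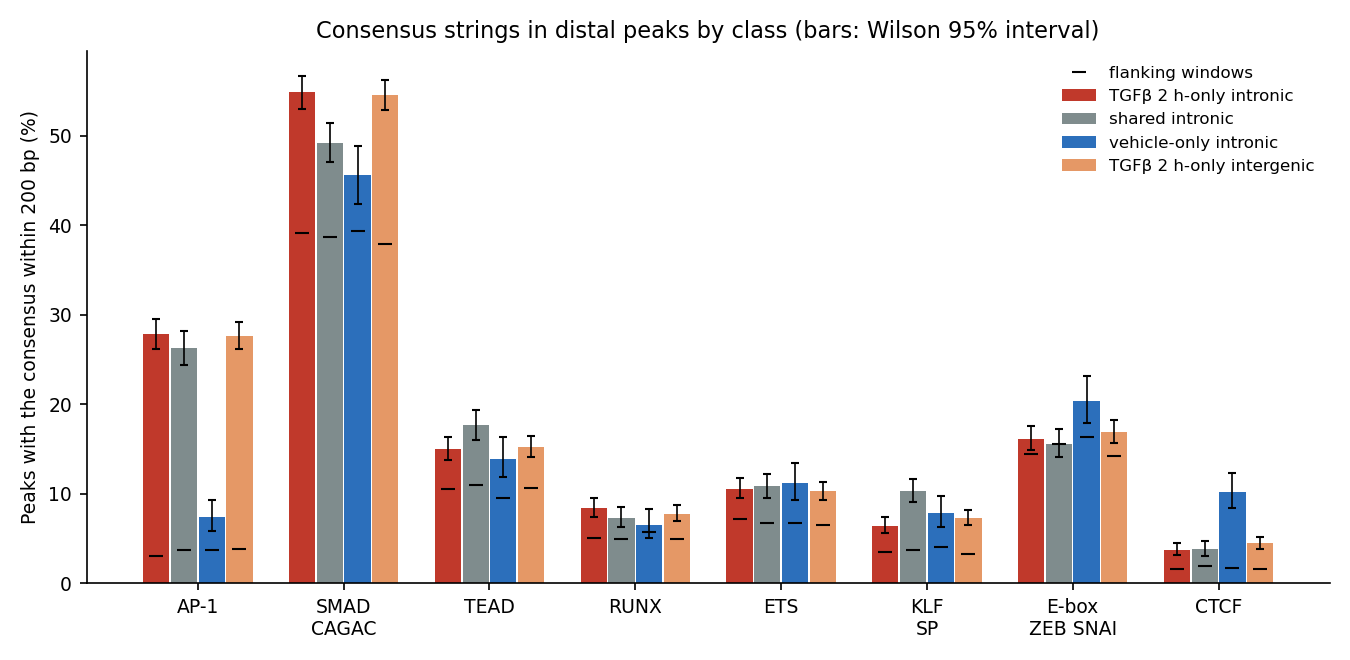
Share of distal peaks (vertical axis, percent) that held each consensus string within the central 200 bp, for TGFβ 2 h-only intronic, shared intronic, vehicle-only intronic and TGFβ 2 h-only intergenic peaks, with Wilson 95% intervals and black ticks for the flanking windows. The AP-1 bars stand at 27.8% in TGFβ 2 h-only intronic peaks and at 7.38% in vehicle-only intronic peaks, and the CTCF bars at 3.75% and 10.2%.

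AP-1 content varied with peak score but little with place. When the TGFβ 2 h-only intronic peaks below the ceiling were put into equal bins by rising score, 22.5%, 22.1%, 27.6% and 36.3% of each held the heptamer, and at the ceiling 36.9% (30.7 to 43.5) did. It was found in 26.9% (24.2 to 29.9) of those in first introns and 28.3% (26.3 to 30.3) of those in later introns. Under 10 kb from a start of the host gene the share was 29.4%, from 10 to 50 kb it was 26.6%, and at 50 kb or more it was 28.01%, with intervals that all overlap. By GC content of the window it ran from 24.2% in the bin richest in GC to 30.6% in the second poorest. Vehicle-only peaks stayed between 4.53% and 11.8% over the same GC ranges.

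The sites were centred on the peaks. Per 50 bp bin and 100 peaks there were 8.98 AP-1 sites in the bin just left of the midpoint and 0.742 in the bin from 450 to 500 bp to its right. Most positive peaks had 1 site (694), 87 had 2 and 7 had 3. In the vehicle-only class the densest bin, from 100 to 150 bp right of the midpoint, held 2.71 sites per 100 peaks. Of its 921 peaks 66 had 1 site and 2 had 2.

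**Figure D2:**
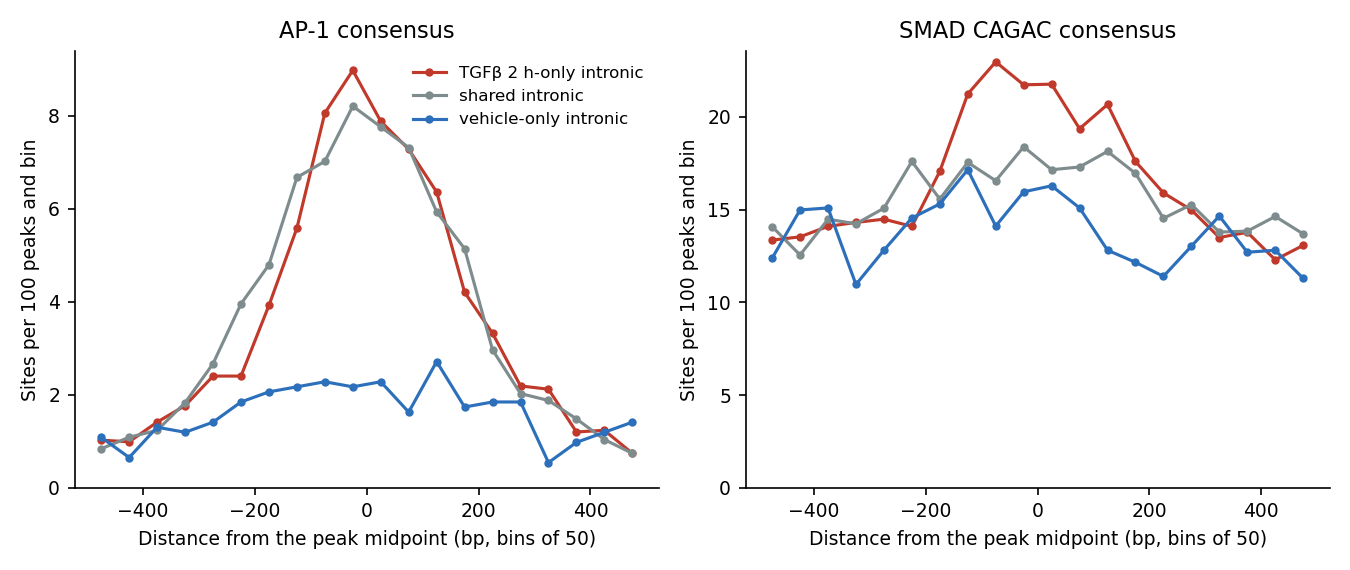
AP-1 and SMAD CAGAC sites per 100 peaks and 50 bp bin (vertical axes) against the distance from the peak midpoint in bp (horizontal axes), for TGFβ 2 h-only, shared and vehicle-only intronic peaks. AP-1 sites of the TGFβ 2 h-only peaks reach 8.98 per 100 peaks next to the midpoint, and their CAGAC sites reach 23.0 in the bin from 100 to 50 bp left of it.

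The bases beside the heptamer were also uneven. Read in the orientation TGACTCA, the 889 sites had T just before it in 5.62% and A just after it in 7.54%. Among the 176 sites found in the flanking windows these were 20.5% and 22.7%. The commonest 9-base form was GTGACTCAC, at 122 of the 889 sites (13.7%). Sites in shared intronic peaks had nearly the same bases, with 7.49% for T before and 8.99% for A after.

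CAGAC, the half-site of Smad3 and Smad4, was the string that set these peaks apart from both other intronic classes. It is short, and flanking windows held it in 39.1% and all peaks of the TGFβ 2 h list in 43.0%. The TGFβ 2 h-only intronic peaks held it in 54.8% (53.0 to 56.7), against 49.2% of shared and 45.6% of vehicle-only intronic peaks. The differences were 5.61 points (2.76 to 8.45) and 9.24 points (5.52 to 12.9). The TGFβ 2 h-only intergenic peaks held it in 54.5%, a difference of 0.309 points (-2.17 to 2.79). Shared peaks were wider (median 595 bp) than vehicle-only peaks (461 bp) and the TGFβ 2 h-only intronic peaks (440 bp). Whether width plays a part in these differences was not tested.

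CAGAC was somewhat commoner among the peaks with AP-1 than among those without. Of the 788 peaks with AP-1, 457 also held CAGAC (58.0%), and of the 2042 without AP-1, 1095 did (53.6%), a difference of 4.37 points (0.28 to 8.40). The ETS strings CCGGAAG and ACAGGAA were in 12.6% of peaks with AP-1 and 9.79% of those without (difference 2.77 points, 0.24 to 5.55). CTCF and KLF/SP strings were rarer beside AP-1, by 2.20 and 2.76 points. The GTCTAGAC palindrome was in 0.636% of TGFβ 2 h-only intronic peaks (0.403 to 1.00). It was in 0.346% of the shared class, and 0 of the 921 vehicle-only peaks had it, which allows a share of up to 0.415%. The difference from the vehicle-only class was 0.636 points (0.160 to 1.00) and from the shared class 0.290 points (-0.14 to 0.70). The flanks held it in 0.265% and all peaks of the TGFβ 2 h list in 0.332%.

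Of the 17 strings searched, 3 differed from shared intronic peaks and 6 from vehicle-only ones with an interval that leaves out 0, with no adjustment for the number searched. Besides CAGAC, TGFβ 2 h-only peaks held less KLF/SP (GGGCGGG or GGGTGTGG, 6.43% against 10.3% of shared peaks, -3.85 points, -5.49 to -2.27) and less TEAD (GGAATG, 15.0% against 17.6%, -2.66 points, -4.80 to -0.56). TEAD proteins are the DNA-binding partners of YAP and TAZ. Against vehicle-only peaks they held less CTCF (a 12-letter consensus, 3.75% against 10.2%, -6.46 points, -8.68 to -4.51), a factor of chromatin loops and boundaries. They also held less of the E-box CAGGTG, bound by ZEB and Snail repressors (16.1% against 20.4%, -4.26 points, -7.29 to -1.42). The NF-kB consensus was in 1.38% against 0.543% of vehicle-only peaks (0.835 points, 0.025 to 1.42). It was in 1.53% of shared intronic peaks and 1.28% of all peaks of the TGFβ 2 h list, and the vehicle-only share rests on 5 of 921 peaks. RUNX (TGTGGTT) was in 8.41%, with intervals of the differences from both classes that include 0. GRHL, the Grainyhead string AACCNGTT of epithelial enhancers, was in 1.02%, and its intervals include 0 as well. Over all peaks of the TGFβ 2 h list these strings were in 22.2% (KLF/SP), 11.1% (TEAD), 3.38% (CTCF), 15.1% (E-box), 4.96% (RUNX) and 1.11% (GRHL).

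A count of all strings of 8 bases, with no list of factors, gave a like order. The 6 with the largest excess over the flanks all held TGACTCA, and 14 of the first 20 held at least 6 of its bases. The first in the order was GTGACTCA, in 11.4% of the peaks and 0.901% of flanking windows. The first with fewer than 6 of its bases was CCAGACAG, ranked 15, in 4.13% against 1.31% of flanks, with 2.72% of shared and 3.04% of vehicle-only intronic peaks. It holds CAGAC, as does ACTGTCTG on its other strand, ranked 20, in 3.71% of TGFβ 2 h-only against 1.73% of shared and 0.869% of vehicle-only intronic peaks.

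Within genes, the peaks were spread along the whole body. First introns held 917 of the 2830 (32.4%, 30.7 to 34.2), against 39.8% (37.7 to 41.9) of shared and 32.2% (29.3 to 35.3) of vehicle-only intronic peaks. First introns make up 26.3% of the distal intron bases. Allowing the first intron of any coding transcript raised the share to 38.9%. Intron 2 held 501, intron 3 held 286 and later introns 1126. The median distance to the nearest start of the host was 18.9 kb, 940 peaks lay under 10 kb and 331 over 100 kb.

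Introns from 5 to 100 kb held the densest peaks. There were 3.63 TGFβ 2 h-only peaks per Mb in introns of 5 to 20 kb and 3.68 in those of 20 to 100 kb. Introns under 5 kb held 2.65 and those of 100 kb or more held 1.86. The intron lengths behind these densities add up to more than the distal intron used elsewhere here, so the basis differs. What this does to the order of the length classes was not tested. Shared and vehicle-only peaks were also sparsest in the longest introns. With each peak counted only in its shortest host gene, the intron with the most members was intron 1 of Gm20388, with 24. Gm20388 is a gene model of 4435 kb that spans many other genes, and peaks in those genes are left out of the 24. The next was intron 6 of Rad51l1, a recombination gene, with 7 peaks in 330 kb. Leaving Gm20388 out as a host gave 2806 peaks with 31.8% in first introns.

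**Figure D3:**
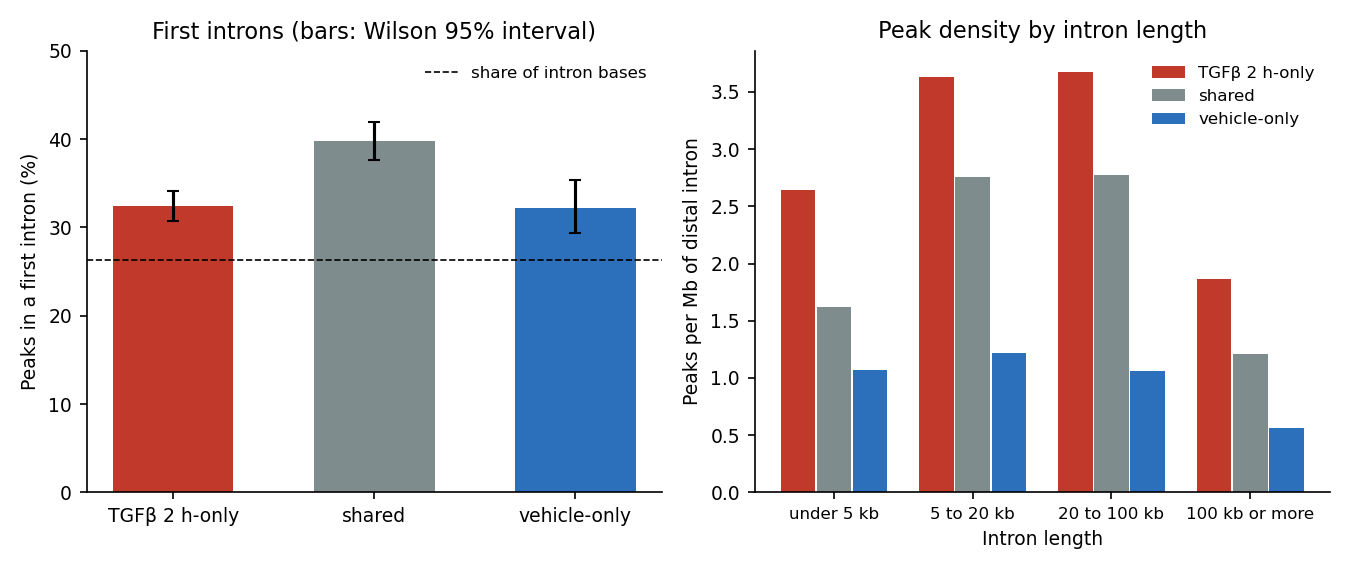
Left, share of distal intronic peaks that lay in a first intron (percent, Wilson 95% intervals), with the share of distal intron bases as a dashed line at 26.3%. Right, peaks per Mb of intron by intron length, with intron lengths that add up to more than the distal intron bases used at left. Shared peaks have the largest first-intron share at 39.8%, and all 3 classes are sparsest in introns of 100 kb or more.

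The 2830 peaks lay in 1926 host genes, 8.61% of the 22380 protein-coding genes, and 70 peaks lay in more than 1 host. A single member was found in 1356 hosts, 363 had 2, 109 had 3, 65 had 4 and 33 had 5 or more. For 896 peaks (31.7%) no other distal intronic peak of any class lay in the host gene. For 1154 (40.8%) the host also held a shared distal intronic peak, and for 669 (23.6%) it also held a vehicle-only one.

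Of the 1926 hosts, 1205 (62.6%, 60.4 to 64.7) had a promoter peak in both lists, 79 in the TGFβ 2 h list only, 60 in the vehicle list only and 582 in neither. Among all protein-coding genes with distal intron sequence 49.9% had one in both lists. With low-scoring peaks dropped (those under the median of their list, promoter peaks included), 47.5% of hosts and 39.7% of all such genes had both. Hosts of shared intronic peaks had one in 67.5% and hosts of vehicle-only peaks in 63.0%. The size of this contrast varied between ranges of intron length, with no steady trend. Among genes with over 100 kb of distal intron, 62.6% (59.1 to 65.9) of hosts and 38.6% (35.9 to 41.3) of other genes had both promoter peaks. Among genes with 10 to 30 kb of it the shares were 56.9% (51.6 to 61.9) and 55.7% (54.2 to 57.1). They were 66.9% and 56.9% for 30 to 100 kb, and 51.9% and 41.5% for 10 kb or less. Of the 207 hosts with 3 or more members, 76.3% (70.1 to 81.6) had both.

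After Gm20388 with 43, the hosts with the most members were Syn3 with 9, Ctif, Mast4 and Pde4d with 8 each, and Rad51l1, Schip1 and Arfip1 with 7 each. They were followed by genes with 6 each, of which Col27a1, Notch2, Sgms1 and Chn2 held the most per Mb of intron. Most are long genes, and density per Mb of intron gives another order. Col27a1, a fibrillar collagen, held 60.7 per Mb (50.6 as joined regions) and the receptor gene Notch2 held 47.8 (31.9 as joined regions), against 3.35 over all protein-coding genes. Pde4d, a cyclic AMP phosphodiesterase, held 6.35, and its 8 members stood beside 8 shared peaks. The synapsin gene Syn3 has the matrix protease inhibitor gene Timp3 nested within it, and the 2 members of Timp3 are among its 9.

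Gene groups were described through 11 lists written from textbook roles, 10 of processes that TGFβ is known to act on and 1 of neuronal genes as a contrast. In all 10 of the former the density of TGFβ 2 h-only intronic peaks was above the 3.35 per Mb of all protein-coding genes, and in 4 the counting interval also lay above it. These were TGFβ feedback and corepressors (12.8 per Mb, 7.30 to 20.7), actin cytoskeleton and focal adhesion (11.9, 8.56 to 16.2), Hippo pathway (11.9, 6.95 to 19.1) and extracellular matrix and its proteases (10.4, 6.50 to 15.7). Density also moved with the promoter, at 4.71 members per Mb over genes with a promoter peak in both lists and 1.97 over genes with neither. The intervals of these 4 lists also lie above 4.71. Those of the other 6 include both 3.35 and 4.71, and the receptor and Smad list, at 4.21, lies below 4.71. Shared intronic peaks were dense in the same lists, with 10.8 per Mb (6.87 to 16.3) for matrix, 7.02 (3.37 to 12.9) for Hippo, 6.69 (4.24 to 10.04) for actin and 6.39 (2.76 to 12.6) for feedback genes, against 2.40 over all protein-coding genes. Their interval also lay above 2.40 for the epithelial junction and polarity list (7.43, 3.96 to 12.7) and the integrin list (6.29, 2.88 to 11.9). In the matrix, junction and neuronal lists the shared peaks were denser than the TGFβ 2 h-only peaks. In the neuronal list 8 of 25 genes hosted 12 members, which gave 0.591 per Mb, and 5 of the 25 had a promoter peak in both lists. Its genes are long, with a median of 826 kb of distal intron, and genes with over 100 kb and no promoter peak held 1.34 per Mb.

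**Figure D4:**
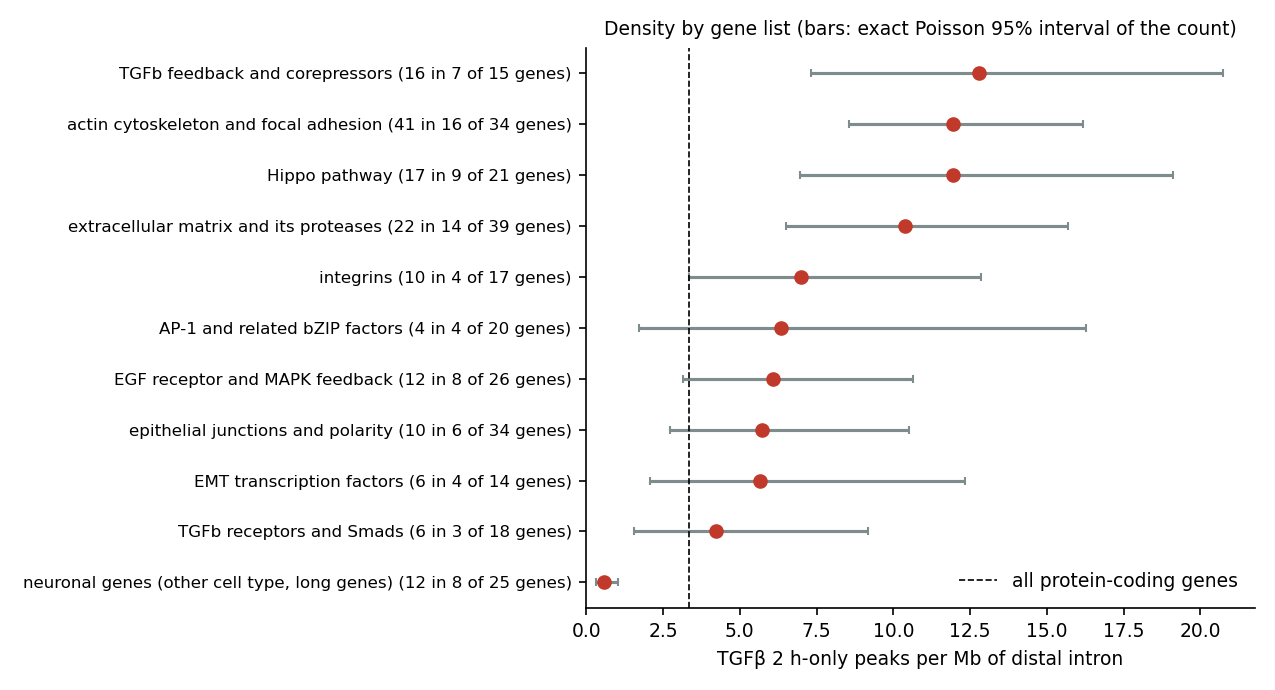
TGFβ 2 h-only intronic peaks per Mb of distal intron (horizontal axis) for each of the 11 gene lists, with exact Poisson 95% intervals of the count and the density over all protein-coding genes as a dashed line at 3.35. The feedback, actin, Hippo and matrix lists lie wholly to the right of the line, and the neuronal list, whose genes have a median of 826 kb of distal intron, lies to the left at 0.591.

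Among receptors and Smads, 3 of 18 genes hosted 6 members, 4.21 per Mb (1.55 to 9.16), beside 6 shared and 3 vehicle-only peaks. Smad3, the receptor-activated Smad that binds CAGAC, held 4, all in intron 1. They lay 36.2, 39.1, 51.5 and 56.5 kb from the gene start, with scores of 701, 686, 981 and 1000. None of the 4 held CAGAC in its central 200 bp. Only the peak of score 686, whose sequence is shown above, held an AP-1 site. Smad3 also held 3 shared and 1 vehicle-only distal intronic peak, so its 4 members stood among peaks that the vehicle list also held. The type I receptor gene Acvr1 held 1 member (score 992), beside 1 shared and 2 vehicle-only peaks. The coreceptor gene Eng held 1 (score 560).

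Of the feedback inhibitors and corepressors, 7 of 15 genes hosted 16 members, beside 8 shared and 1 vehicle-only peak. D18Ertd653e is the symbol that this annotation gives to Ldlrad4, a membrane inhibitor of Smad activation. It held 6 members and no other distal intronic peak, with scores of 628, 631, 868, 826, 1000 and 1000 from the gene start onward. They lay from 12.2 to 224 kb after the gene start, the first pair at 12.2 and 12.6 kb. Smurf1, a ubiquitin ligase for receptors and Smads, held 3 in intron 1 with scores of 723, 948 and 850. The corepressor gene Ski held 2 in intron 1 (scores 697 and 614), and the ligase gene Wwp2 held 2 in intron 6 (548 and 639).

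In the Hippo list 9 of 21 genes hosted 17 members, beside 10 shared and 2 vehicle-only peaks. Wwtr1, which encodes the YAP relative TAZ, held 5, all in intron 2 of 73.0 kb, and no shared or vehicle-only distal intronic peak. Their scores were 554, 871, 550, 578 and 563, from 20.1 to 73.9 kb after the gene start, so 4 of the 5 were close to the lowest score in the list. Vgll4, whose product competes with YAP for TEAD proteins, held 3 (scores 887, 661 and 1000), the first of them 98 bp from a vehicle peak. Tead1 held 2, with scores of 915 and 1000, and the angiomotin gene Amotl1 held 2, both with an AP-1 site. Of the members of Wwtr1, 2 had one, and none of those of Vgll4 and Tead1 did.

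**Figure D5:**
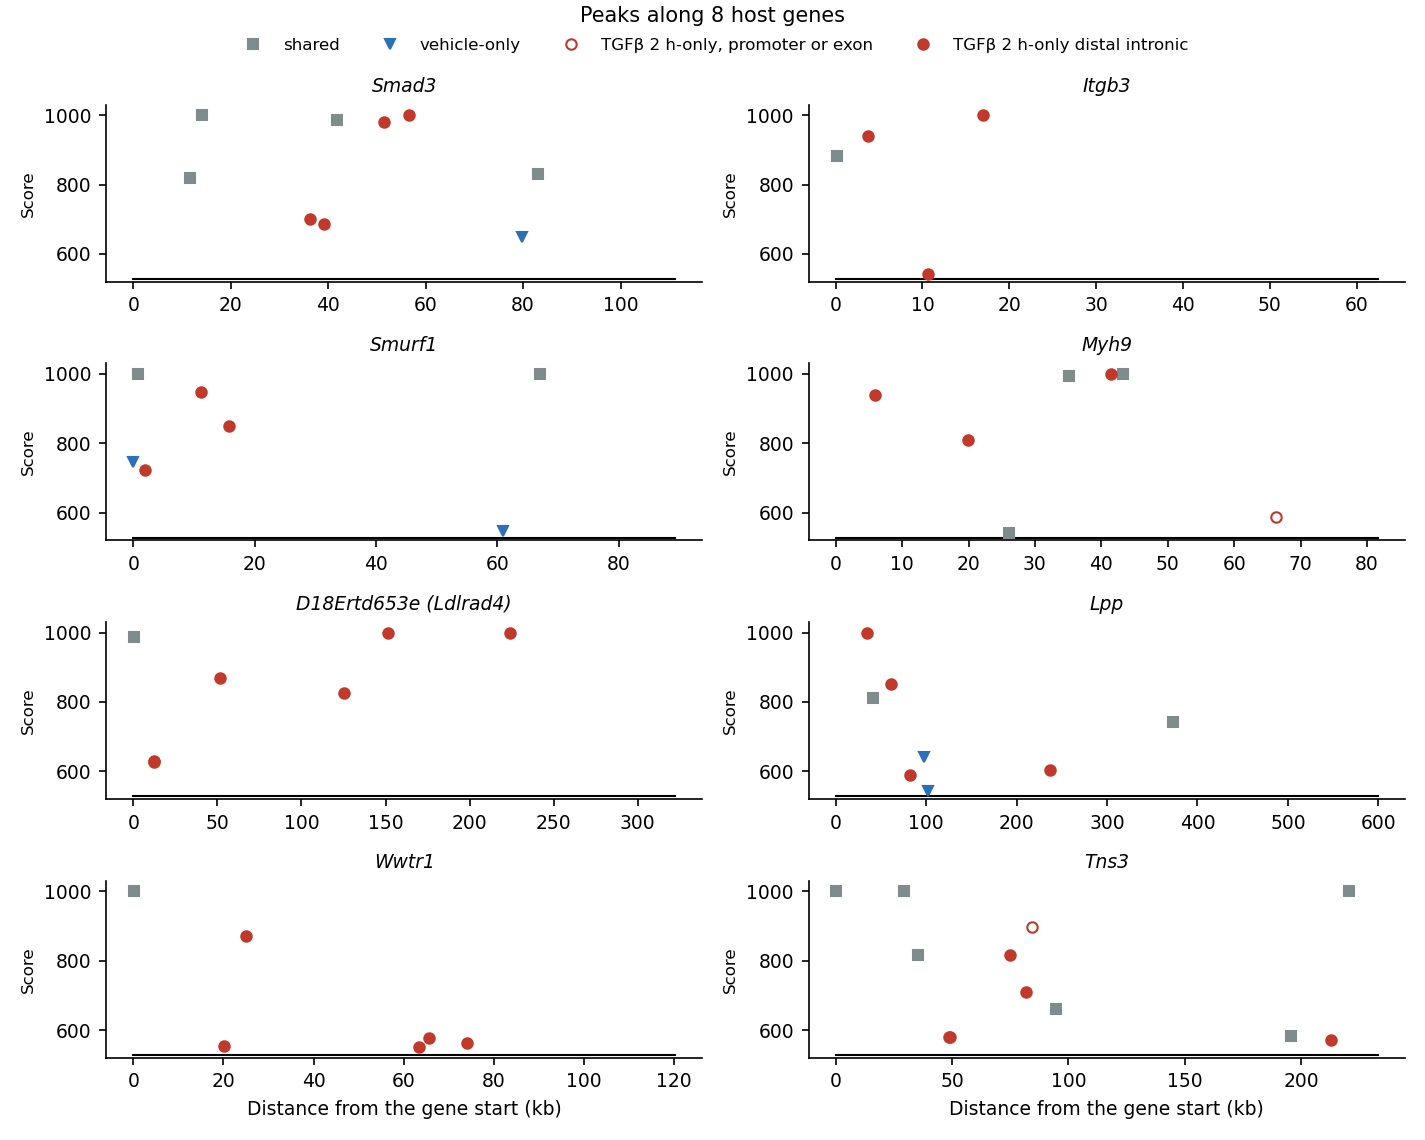
Peak score (vertical axes, from 540 to 1000, no unit) against distance from the gene start in kb (horizontal axes) along 8 host genes, with TGFβ 2 h-only distal intronic peaks as filled circles, other TGFβ 2 h-only peaks as open circles, shared peaks as squares, vehicle-only peaks as triangles and the gene body as a black line. Wwtr1 and D18Ertd653e (Ldlrad4) hold 5 and 6 TGFβ 2 h-only intronic peaks with the one shared peak of each at the gene start, while those of Smad3 and Tns3 lie among shared peaks.

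Genes of actin and adhesion held the most members of any list, 41 in 16 of 34 genes, beside 23 shared and 8 vehicle-only peaks. Myh9, the heavy chain of nonmuscle myosin IIA, held 3, with scores of 940, 808 and 1000 at 5.87, 19.9 and 41.5 kb from the gene start, and 2 of them had an AP-1 site. The paxillin gene Pxn held 3 (682, 594 and 1000) in 31.5 kb of distal intron, which gave 95.3 per Mb, beside 1 vehicle-only peak. Its member of score 682 lay 121 bp from a vehicle peak. Lpp, a zyxin relative, held 4, with scores of 1000, 852, 589 and 604, of which 2 had an AP-1 site, beside 2 shared and 2 vehicle-only peaks. The tensin gene Tns3 held 5, none with an AP-1 site, beside 4 shared peaks.

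Integrin hosts were Itgb3, Itga2, Itga3 and Itga6, 4 of 17 genes with 10 members, 6.99 per Mb (3.35 to 12.8). None of the 4 had a shared or vehicle-only distal intronic peak of its own, although the list held 9 shared peaks in other integrin genes. Itgb3, the β3 subunit, held peaks of score 941, 543 and 1000 at 3.74, 10.7 and 16.9 kb from the gene start, and 2 had an AP-1 site. The collagen-receptor subunit gene Itga2 held 3 (592, 575 and 766). The 2 members of Itga6 had scores of 793 and 698, and those of Itga3 had 554 and 600. None of the members of Itga2, Itga6 and Itga3 had an AP-1 site.

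Matrix genes hosted 22 members in 14 of 39 genes, beside 23 shared and 2 vehicle-only peaks. Col4a2, a basement membrane collagen, held 4, with scores of 690, 690, 542 and 613 along the gene, beside 4 shared peaks. The laminin gene Lama3 held 3 intervals in 2 joined regions (638, 639 and 609), and its promoter had a peak in the TGFβ 2 h list only. Lamc1 held 2 (689 and 843). Timp3 held 2 (1000 and 551), also with a promoter peak in the TGFβ 2 h list only.

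In the list of AP-1 and related factors, 4 of 20 genes hosted 1 member each, 6.35 per Mb (1.73 to 16.3). They were Mafk (score 1000), Batf (960), Atf7 (620) and Bach2 (552). Most genes of that list have little intron, with a median of 8.61 kb. No member lay in an intron of a Jun or Fos gene. Among factors of epithelial-to-mesenchymal transition, 4 of 14 hosted 6 members, 5.67 per Mb (2.08 to 12.3). Ets1 held 2 (651 and 945), Tcf4 held 2 (702 and 630), and the repressor genes Zeb1 (768) and Zeb2 (648) held 1 each. There was no shared distal intronic peak in any of the 4, although the list held 4 shared peaks in other genes.

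Epithelial junction and polarity genes hosted 10 members in 6 of 34 genes, 5.72 per Mb (2.74 to 10.5), beside 13 shared and 5 vehicle-only peaks. The polarity gene Llgl2 held the member with the highest score, 1000. Pard3, another polarity gene, held 4, with scores from 548 to 816. The tight junction gene Ocln held 2 (546 and 614), and Cdh1, which encodes E-cadherin, held 1 (730) beside 2 shared peaks. In the EGF receptor and MAPK list, 8 of 26 genes hosted 12 members, 6.10 per Mb (3.15 to 10.6), beside 8 shared and 4 vehicle-only peaks. The Ras pathway inhibitor gene Spred2 held 4, all in intron 1, with scores of 606, 684, 576 and 918. None of these had an AP-1 site. The stress kinase gene Map3k5 held 2 (556 and 587) beside 2 shared and 2 vehicle-only peaks, and the EGF family gene Ereg held 1 (716) with 2 AP-1 sites.

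The score ceiling of 1000 was reached by 217 peaks. The 8 described here were picked from these by the number of rows that listed them, at most 1 for each gene. The first was a peak of 1172 bp and 8 rows in intron 3 of Tcf7l1, a Wnt pathway repressor (chr6:72609508-72610679), 42.4 kb from the nearest vehicle peak. It was followed by peaks in intron 5 of the cell cycle kinase gene Cdk6 (chr5:3493921-3495013) and in intron 2 of Rnf43 (chr11:87510475-87511407), each with 7 rows. Others of the 8 lay in Rad51l1, the amino acid transporter gene Slc43a2 and Podxl. Of the 8, 2 had an AP-1 site and 6 had CAGAC, and 1 lay in a first intron. Over all 2830 peaks 27.8% had AP-1, 54.8% had CAGAC and 32.4% lay in a first intron.

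Markers were read at promoters to check the labelled cell type. Of 10 epithelial markers 5 had a promoter peak (Cdh1, Grhl2, Krt8, Krt18 and Krt19), 4 of them in both lists. The promoters of Epcam, Cldn3, Cldn4, Cldn7 and Esrp1 had none, so the lists show the epithelial identity only in part. None of the immune, endothelial or adipocyte markers had one. Of 6 fibroblast markers only Col1a1 did, in both lists, and of 4 neuronal markers only Snap25. Among marker genes, Cdh1, Pdgfra, Plin1, Rbfox3 and Syt1 hosted a member.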

How the data were processed

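The authors aligned DNaseI-seq reads to mm9 and called peaks with their ATAC-seq pipeline and options for DNaseI-seq that are not given in the sources used here. The submitters' processing notes name MACS2 2.1.2 and deepTools. The deposited lists give each interval a whole-number score from 540 to 1000, which the authors computed and which was used as deposited. The series text mentions duplicates, while 1 list per condition was analysed here. The lists hold no read depth. The reporting summary lists more mapped and filtered reads for vehicle than for TGFβ 2 h, and depth, digestion and peak calling cannot be told apart from the treatment.

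Rows with the same interval were counted once. The 2 lists were compared by overlap of at least 1 bp, and peaks were placed with NCBIM37 (mm9) and GENCODE M1, using the shortest host gene where several applied and the longest coding transcript for intron numbers. Motifs were exact strings. Shares have Wilson, differences Newcombe, and ratios exact binomial 95% intervals, computed with SciPy 1.17.1. Functions were tested on simulated data. The members and the gene and motif lists were chosen with earlier results of these data known.

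Genes were named by rule. These were the 12 with most members, ties by members per Mb of intron, and up to 4 a list. Also named were 8 of the peaks at the score ceiling, by number of rows, and 5 of the most AP-1-rich peaks, by score. The fullest intron and the peaks nearest the thresholds were named too. The hosts of the palindrome sequences were chosen after their values were seen. Coordinates are 1-based. Some genes and 1 gene list that this rule names are not reported here.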

Additional observations from a re-analysis of the deposited data

How the results depend on the processing

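There were 69 alternative values for 6 results. Of these, 47 did not leave the reported interval (for counts, a factor of 1.5) and 22 did. A direction was defined only for the ratio to vehicle-only peaks and the AP-1 difference from them. It changed in 0 of the values of these results. Dropping the peaks that scored below their list's median gave 878 TGFβ 2 h-only intronic peaks, a ratio to vehicle-only peaks of 5.97, AP-1 in 37.5%, 38.4% in first introns and 47.5% of hosts with both promoter peaks. Cutting the lists to equal length gave 1581 peaks, a ratio of 1.28, AP-1 in 32.4% and an AP-1 difference from vehicle-only peaks of 23.3 points. Counting every row gave 6164 and a ratio of 2.63, and a reciprocal overlap of 50% gave a ratio of 2.74. AP-1 shares grew with the window searched, by construction, from 14.8% in 100 bp to 42.8% in 400 bp and 46.1% in whole peaks, with differences from vehicle-only peaks of 10.8, 27.3 and 29.1 points. First introns held 30.3% with a promoter window of 5000 bp, 34.4% for peaks free of exon bases and 38.9% for any coding transcript, and 66.9% of hosts had both promoter peaks with the wider window. The alternative without Gm20388 was chosen after seeing the data. The cause was not tested for the other changes. No paired analysis was possible because there was a single list for vehicle and a single list for TGFβ. All comparisons are limited by that number, and intervals hold no variation between cultures.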

Other observations

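The TGFβ 2 h-only intronic peaks were spread over the genome. The ratio to vehicle-only intronic peaks ran from 1.67 on chromosome 19 to 6.06 on chromosome 18, where 103 stood against 17. It follows from the rule and from lists of unequal length, and was not computed by chromosome at equal length. Per Mb of distal intron they were densest on chromosome 15, with 4.64, and chromosome 11, with 4.63, and sparsest on chromosome X, with 0.760.

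At least 1 base of an annotated exon lay in 203 of them (7.17%, 6.28 to 8.18), against 8.40% of shared and 9.88% of vehicle-only intronic peaks. The rule had already left out peaks with a midpoint in an exon of the host. In 18 the midpoint lay in an exon of another annotated gene.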
